A study of Mus musculus with 4 samples.

Results

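Transcripts of 36 genes of glycolysis and of the response to hypoxia were followed in stimulated CD4 T cells that carried or lacked the microRNA miR-146a. The genes were chosen by symbol: glucose and lactate transporters, the enzymes from hexokinase to lactate dehydrogenase, HIF-1 alpha and known HIF-1 targets, each read from the probe set with the highest mean signal that the annotation gives to that gene alone. Of the 36, 33 had such a probe set among the 18194 genes named on the array, and all 33 passed the filter on dim genes and were among the 12817 genes tested. Gpi1 (glucose-6-phosphate isomerase), Pfkfb1 and Eno1 were not analysed here. The rule uses symbols and not measured differences.

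Naive CD4 T cells were sorted from 2D2 mice, whose T cells bear a transgenic receptor for a peptide of myelin oligodendrocyte glycoprotein. One group, called wildtype in the labels, had miR-146a, and the other, called miR-146a-deficient, lacked it. Both carried the 2D2 receptor, and both were kept for 3 days with anti-CD3 at 5 µg/ml on the plate and anti-CD28 at 1 µg/ml, which the labels give as plate-bound in 1 place and as soluble in another. There were 2 wildtype and 2 deficient arrays (Affymetrix Mouse Genome 430 2.0), labelled as biological replicates without saying whether these were separate mice or cultures, so p-values measure only the spread between these samples. The sources used here give neither age nor sex, nor whether the deletion is limited to a cell type, and no group is labelled as exposed to low oxygen. Median signals of the arrays ran from 48.7 to 57.7. Across the tested genes, each read from 1 probe set, log2 values correlated at 0.986 within each genotype and at 0.984 to 0.985 between them.

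Glycolysis turns glucose into pyruvate, and activated T cells run it at a high rate and release much of the product as lactate even when oxygen is plentiful. HIF-1 is a transcription factor whose alpha subunit is marked for destruction by oxygen-dependent prolyl hydroxylases and which, when stable, drives genes of glucose uptake, glycolysis and lactate output. In T cells the receptor signal, mTOR and Myc feed the same genes. The mature miR-146a, which binds transcripts through its seed and is known to restrain NF-kB signalling, is shown because it is what the deficient cells lack; its seed, bases 2 to 8, is in capitals, and it comes from RefSeq (GRCm38.p6, chr11:43374435-43374456, minus strand).
mmu-miR-146a-5p: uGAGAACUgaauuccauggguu

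Many of these genes share a short promoter word. The core of the hypoxia response element, ACGTG, was looked for on both strands in RefSeq promoter windows of 300 bases (GRCm38.p6), from 250 before to 50 after each annotated start. At least 1 window was found for 34 of the 36 genes, and 23 of the 34 (67.6%) held the word, against 21.8% of all 27025 genes in the table. Of the 31 tested members with a window, 23 (74.2%) held it, against 28.6% of tested genes. Per window the shares were 50.9% of 53 and 19.6% of 32851, since a gene with several starts has several windows. By role, 7 of 8 HIF-1 genes with a window held it, as did 4 of 5 for uptake, 3 of 4 for lactate, 6 of 10 from aldolase to pyruvate and 3 of 7 for phosphofructokinase and its regulators. The word lies inside the E-box CACGTG, which Myc and other factors bind and which 7 of the 34 member genes with a window held. Over all windows, counted per window and not per gene, 7.15% held the E-box. The word also contains a CpG, whose frequency differs between promoters. A match is not a bound site.

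The windows of 4 members are printed with the matches in capitals. Matches are counted on each strand, so 1 E-box CACGTG gives 2 overlapping matches. The 5 matches of Ldha include 2 E-boxes, and the 2 matches of Bnip3 are 1 E-box. Ldha is shown for its 5 matches, the most in a member's window, Bnip3 and Ankrd37 because they differed most between arrays of 1 genotype among the HIF-1 targets, and Pfkfb4, with 0 matches, because it had the smallest p of the genotype comparison. The windows lie at chr7:46845554-46845853 (plus strand), chr7:138909457-138909756 (minus), chr8:45999801-46000100 (minus) and chr9:108991652-108991951 (plus).
Ldha: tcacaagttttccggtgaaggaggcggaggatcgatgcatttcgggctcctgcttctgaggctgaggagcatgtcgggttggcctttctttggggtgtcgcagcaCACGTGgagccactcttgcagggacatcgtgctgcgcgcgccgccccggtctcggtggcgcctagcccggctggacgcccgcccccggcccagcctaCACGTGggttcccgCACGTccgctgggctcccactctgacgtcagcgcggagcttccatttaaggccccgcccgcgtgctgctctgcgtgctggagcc
Bnip3: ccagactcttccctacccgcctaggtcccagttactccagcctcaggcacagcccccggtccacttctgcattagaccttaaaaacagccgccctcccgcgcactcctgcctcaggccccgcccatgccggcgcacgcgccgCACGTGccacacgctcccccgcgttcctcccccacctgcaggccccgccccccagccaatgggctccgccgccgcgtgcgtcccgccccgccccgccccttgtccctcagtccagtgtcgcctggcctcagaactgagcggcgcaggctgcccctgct
Ankrd37: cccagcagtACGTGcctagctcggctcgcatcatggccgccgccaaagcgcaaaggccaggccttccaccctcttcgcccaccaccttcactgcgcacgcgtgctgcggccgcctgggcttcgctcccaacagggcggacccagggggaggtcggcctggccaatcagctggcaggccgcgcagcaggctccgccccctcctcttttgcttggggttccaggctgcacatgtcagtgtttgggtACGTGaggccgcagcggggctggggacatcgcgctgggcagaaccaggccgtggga
Pfkfb4: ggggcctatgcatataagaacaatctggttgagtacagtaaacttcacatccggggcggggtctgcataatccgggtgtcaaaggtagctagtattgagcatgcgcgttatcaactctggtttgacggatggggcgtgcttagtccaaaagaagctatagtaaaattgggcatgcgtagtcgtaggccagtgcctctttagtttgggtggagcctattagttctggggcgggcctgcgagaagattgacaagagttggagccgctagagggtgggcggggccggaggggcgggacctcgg

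The genotype comparison asks whether the loss of miR-146a changes these transcripts. None of the 33 genes passed. Their differences, deficient minus wildtype on the log2(signal + 14.7) scale, ran from -0.51 (Pfkfb2) to 0.53 (Pfkfb4), with 16 above 0, 17 below it and a median of -0.0086, beside a median of -0.010 over all tested genes. At an adjusted p of 0.05 in limma's moderated test, which called 0.179% of all tested genes, 0 of the 33 were called, and the smallest adjusted p was 0.917. At an unadjusted p of 0.05, 1 of the 33 (Pfkfb4) passed, where 5.25% of tested genes did. Wildtype and deficient values stood apart without overlap in 2 of the 33 (6.06%), Pfkfb2 and Pfkfb4, where 33.6% of all tested genes did so.

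The intervals give the range of differences left for each gene, not the size needed for a call. In 30 of the 33 (90.9%) the difference was under 0.2 in size, against 68.3% of all tested genes, and in 30 the 95% interval lay within 1 log2 unit of 0, a 2-fold change, against 79.5%. Within a 1.5-fold change lay 28 of the 33 intervals (84.8%), against 57.3%. The members also had smaller errors, with a median SE of 0.128 against 0.160 over all tested genes. These shares therefore do not compare genes of like precision. The 3 genes with wider intervals, Hk3, Pfkfb2 and Pfkfb4, were dim, with array signals from 31.2 to 238, where the filter stood at a signal of 29.9. Intervals are those of single genes, not widened for their number, and dim genes have folds understated by the pseudocount. In these bulk samples, fewer cells expressing a gene and less RNA per cell cannot be told apart.

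**Figure D1:**
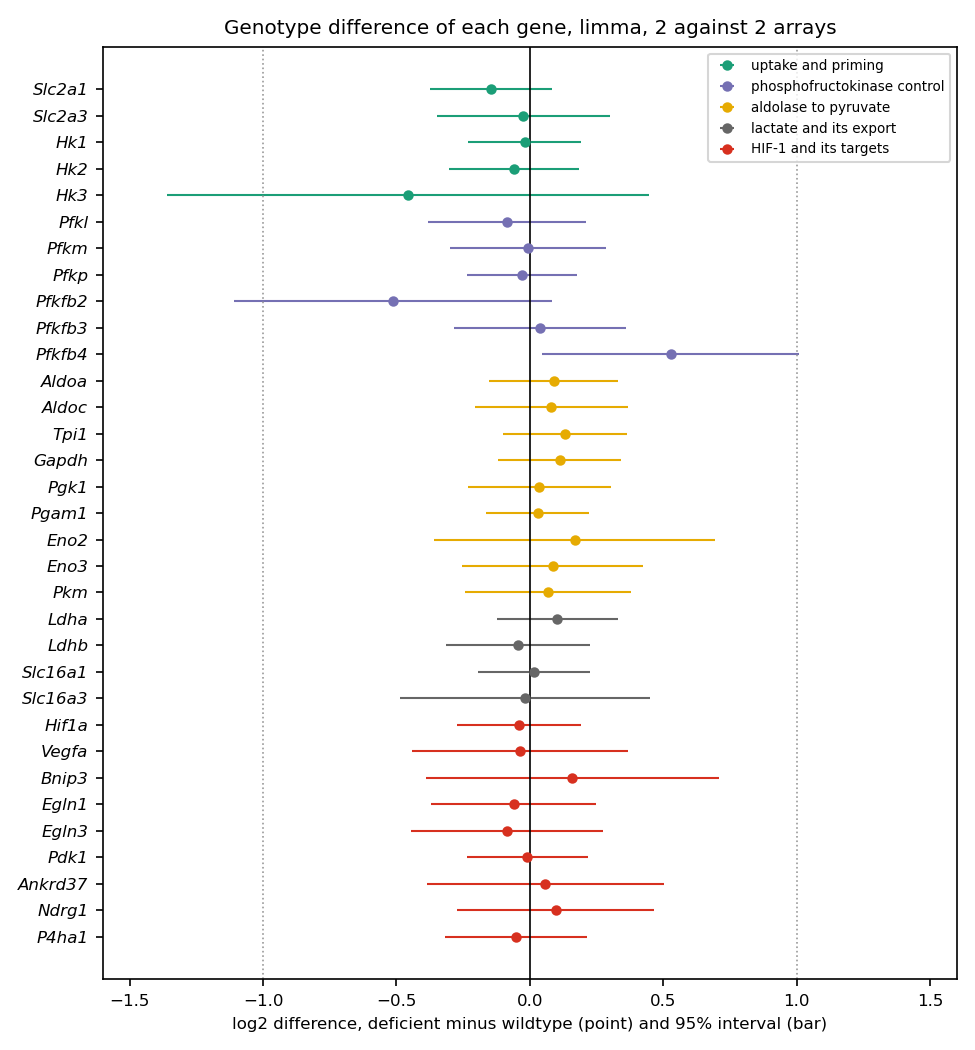
Log2 difference between miR-146a-deficient and wildtype cells (horizontal axis) for each of the 33 genes, coloured by role; points are limma estimates from 2 against 2 arrays, bars the 95% intervals, and dotted lines mark a 2-fold change on the log2(signal + 14.7) scale. The bars of 32 genes include 0; that of Pfkfb4 (0.044 to 1.01) does not before adjustment, and the bars of Hk3, Pfkfb2 and Pfkfb4 pass a dotted line.

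Glucose entry and its capture by hexokinase came first. Slc2a1 encodes GLUT1, the transporter that activated T cells place on their surface; its signals were 6197 and 6814 in wildtype and 6225 and 5542 in deficient arrays. The genotypes overlapped, since deficient replicate 1 lay just above the lower wildtype array, and the difference was -0.15 ± 0.10 (SE; limma adjusted p = 0.972). Its 3 probe sets gave between -0.15 and -0.058. Slc2a3 encodes GLUT3, a high-affinity transporter; it read 13439.6 and 16128 in wildtype and 16671 and 12566 in deficient arrays. Both its highest and its lowest array were deficient, and the difference was -0.025 ± 0.14.

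Hk2, the inducible hexokinase that traps glucose as its phosphate, read 3769.6 and 4328 in wildtype and 4072 and 3689 in deficient arrays, a difference of -0.059 ± 0.11. The genotypes overlapped. Hk1, the constitutive hexokinase, was the steadiest of the group, with all 4 arrays between 2998 and 3182 and a difference of -0.020 ± 0.093. Hk3, a hexokinase of myeloid cells, stood near the filter at 59.8 and 85.5 against 71.7 and 31.2, so its -0.46 ± 0.40 carries the widest interval of the 33 (-1.36 to 0.45). All 5 estimates of the group lay below 0, but centring arrays on the median moved Slc2a3 and Hk1 above it (0.019 and 0.024), and the mean of probe sets moved Hk1 and Hk3 (0.020 and 0.10).

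Phosphofructokinase catalyses the committed step of glycolysis, and in the probe sets used the arrays of the genotypes overlapped for each of its subunits. Pfkp, the platelet-type subunit, read 9417 and 10169 in wildtype and 9941 and 9262 in deficient arrays, a difference of -0.028 ± 0.090. Pfkl, the liver type, spanned 972 to 1196, and Pfkm, the muscle type, 717 to 832, with differences of -0.087 ± 0.13 and -0.0086 ± 0.13. In Pfkl the highest array was wildtype and the lowest deficient, while in Pfkm both extremes were deficient.

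In the probe sets used, the regulators of phosphofructokinase held the only members whose genotypes did not overlap. Among dimmer, unused probe sets past the filter, 1 each of Pfkp (-0.31), Pfkl (-0.55), Slc2a3 (-0.55) and Pdk1 (-0.20) stood apart, lower in deficient arrays. Every other unused member probe set past the filter overlapped. The Pfkfb enzymes make and break the sugar phosphate that activates phosphofructokinase. Pfkfb4 read 131 and 167 in wildtype and 238 and 203 in deficient arrays, so both deficient arrays were higher. The difference was 0.53 ± 0.21 (95% interval 0.044 to 1.01), a 1.44-fold ratio on the scale used, and limma's adjusted p was 0.917 (unadjusted 0.0358). By p, Pfkfb4 ranked 497 among the tested genes; it has 1 probe set, and leaving out 1 array gave estimates from 0.37 to 0.68. Pfkfb2 went the other way, at 135 and 106 in wildtype against 79.3 and 79.5 in deficient arrays. Its difference was -0.51 ± 0.26 (unadjusted p = 0.082 in limma), and a further probe set above the filter gave -0.12. Pfkfb3, the isoform best known for induction in activated and hypoxic cells, read 461 and 452 against 442 and 497. Its genotypes overlapped, with a difference of 0.038 ± 0.14.

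From aldolase to pyruvate the transcripts were bright but for Eno2 (119 to 166), and the genotypes overlapped in each. Gapdh, which oxidises glyceraldehyde phosphate, read 29713 and 32312 in wildtype and 36239 and 30891 in deficient arrays. Deficient replicate 1 was the highest of the 4, the others overlapped, and the difference was 0.11 ± 0.10. Its only probe sets named for it alone are array controls along the transcript; the ratio of the 3' to the 5' one, a sign of RNA quality, was 0.778 and 0.808 in wildtype and 0.746 and 0.778 in deficient arrays, and its part in any result was not tested. Pkm, pyruvate kinase, read 6274 and 6233 in wildtype and 7639.8 and 5624 in deficient arrays. The wildtype pair was nearly equal and lay between the deficient arrays, with a difference of 0.068 ± 0.14.

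The other enzymes of this stretch also overlapped between genotypes. Tpi1, triose phosphate isomerase, read 17576 and 19061 against 21719 and 18531, a difference of 0.13 ± 0.10. Aldoa, the main aldolase, spanned 21055 to 25621, and Pgk1, phosphoglycerate kinase, 25478 to 31891, with differences of 0.089 ± 0.11 and 0.034 ± 0.12. Aldoa is read from a probe set type whose probes may also bind related transcripts, and its 5 probe sets lay between -0.13 and 0.089, on both sides of 0. Pgam1, phosphoglycerate mutase, stayed between 10563 and 11199.5 on all 4 arrays, with 0.029 ± 0.085. The minor isoforms Aldoc (0.080 ± 0.13), Eno2 (0.17 ± 0.23) and Eno3 (0.085 ± 0.15) spanned 1861 to 2315, 119 to 166 and 1058 to 1408. All 9 estimates from Aldoa to Pkm lay above 0, yet 0 of the 9 did so without overlap of the arrays, and quantile normalization moved Pgk1 and Pgam1 below 0 (-0.023 and -0.0089).

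Of the 4 transcripts for lactate handling 0 passed the test, and the genotypes overlapped in all 4. Ldha, the lactate dehydrogenase subunit that favours pyruvate reduction and whose promoter is printed above, read 24180.1 and 26805 in wildtype and 29217 and 25573 in deficient arrays. Deficient replicate 1 was highest and the other deficient array lay between the wildtype pair; the difference was 0.10 ± 0.099. Ldhb, the subunit that favours lactate use, spanned 1056 to 1221 with both extremes deficient, a difference of -0.045 ± 0.12. The lactate carriers Slc16a1 (MCT1) and Slc16a3 (MCT4) differed by 0.015 ± 0.092 and -0.018 ± 0.21. Slc16a3, a HIF-1 target, was low, at 220.4 and 171 against 182 and 201, and both extremes were wildtype.

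None of HIF-1 and its targets passed the test. Hif1a read 13041 and 15468 in wildtype and 14041 and 13578 in deficient arrays. Both deficient arrays lay between the wildtype pair, and the difference was -0.041 ± 0.10 (95% interval -0.27 to 0.19). The transcript does not report the stability of the protein, on which HIF-1 activity turns. Egln1 and Egln3, the prolyl hydroxylases PHD2 and PHD3, which act on HIF-1 alpha and are themselves its targets, differed by -0.061 ± 0.14 and -0.086 ± 0.16. Pdk1, a kinase that inhibits pyruvate dehydrogenase in the mitochondrion, read 2935 and 3056 against 3129.9 and 2827, a difference of -0.0097 ± 0.099. The deficient pair enclosed the wildtype one. A further Pdk1 probe set read 3175 and 2895 in wildtype and 2592 and 2667 in deficient arrays, without overlap (-0.20). Its 4 probe sets gave between -0.20 and 0.051, on both sides of 0.

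Bnip3, which encodes a receptor for the removal of mitochondria, had the widest gap between arrays of 1 genotype, with Hk3. It read 4941 and 5726 in wildtype and 8147 and 4329.8 in deficient arrays. Deficient replicate 1 stood above every other array and deficient replicate 2 below them all, which left a difference of 0.16 ± 0.24. Without the former the estimate was -0.30 and without the latter 0.61. Ankrd37, an ankyrin repeat gene induced by HIF-1, read 640.1 and 1000.4 in wildtype and 875 and 795 in deficient arrays, and the wildtype pair enclosed the deficient one (0.058 ± 0.19). Vegfa, the angiogenic growth factor, read 390.4 and 509 against 393 and 481, with 1 low and 1 high array in each genotype (-0.037 ± 0.18). Ndrg1, a stress-response gene, and P4ha1, a subunit of collagen prolyl hydroxylase, differed by 0.096 ± 0.16 and -0.051 ± 0.12. The 5 probe sets of Ndrg1 lay between -0.18 and 0.28, on both sides of 0.

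**Figure D2:**
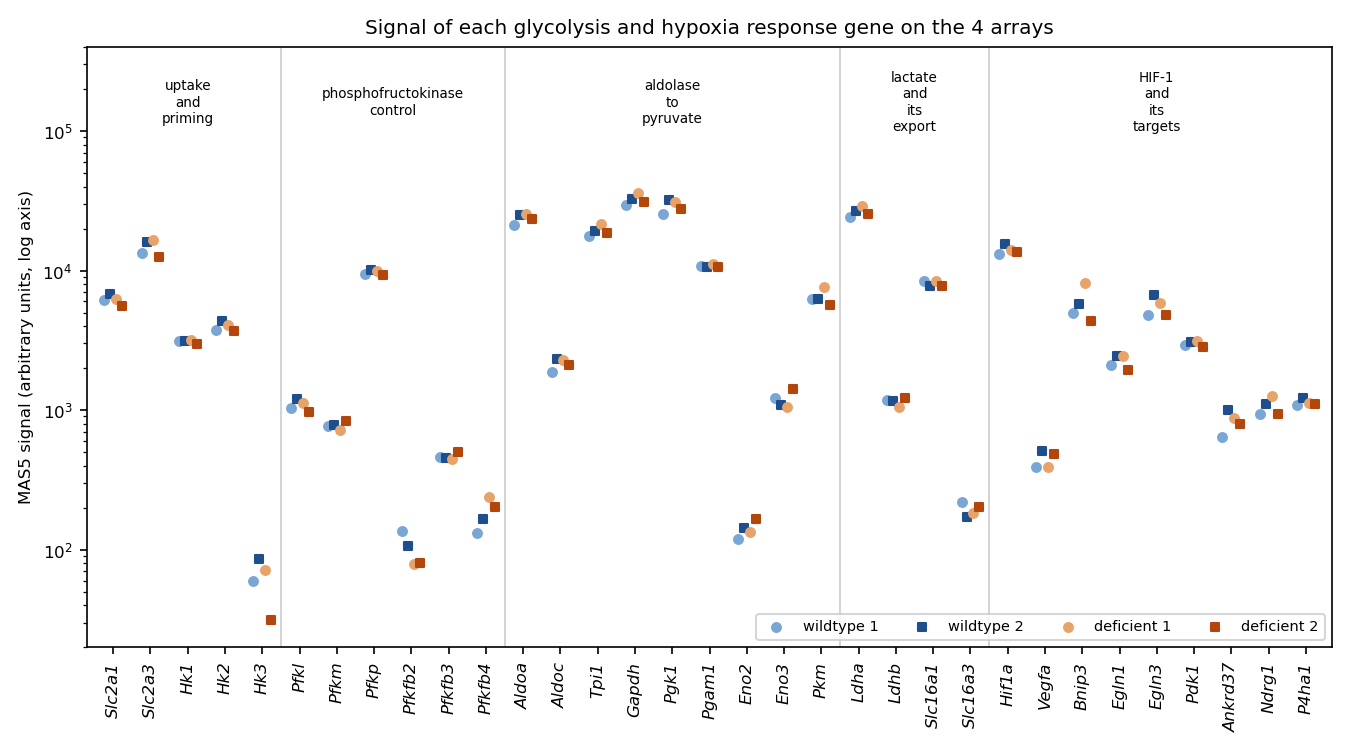
MAS5 signal (vertical log axis, arbitrary units) of each of the 33 genes on the 4 arrays, ordered by role; each point is 1 array, and blue and orange mark wildtype and deficient cells. Orange and blue points overlap in all genes but Pfkfb2 and Pfkfb4; signals of different genes come from different probes and are not comparable in height.

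The arrays of 1 genotype also differed from each other. The genotype difference was smaller than the mean difference between arrays of the same genotype in 31 of the 33 genes (93.9%). Over all tested genes this held in 66.4%, and the exceptions among the members were Pfkfb2 and Pfkfb4. With 2 arrays a group it holds exactly when the genotypes overlap, so it restates the overlap count above and adds no result. The differences between arrays of 1 genotype had a common order. Wildtype replicate 2 exceeded replicate 1 in 25 of the 33 (75.8%, median 0.18), and deficient replicate 1 exceeded replicate 2 in 25 (75.8%, median 0.14), where all tested genes gave 50.8% and 51.2%. Both held in 22 of the 33 (66.7%) and in 24.6% of all tested genes. In the wider hypoxia list described below both held in 20 of 40 (50%), and in the other related lists in 21.4% to 42.9%. Among 7 CD4 T cell markers wildtype replicate 2 exceeded replicate 1 in 7 (median 0.20), but both held in 1. The opposite order, wildtype 1 and deficient 2 higher, held in 5 of the 33 and in 22.7% of tested genes. This count was made after the values were seen and is a description of 4 arrays, with no test.

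By role the order was uneven. It held in 8 of the 9 HIF-1 genes, Vegfa being the exception, and in 5 of 5 for uptake, 5 of 9 from aldolase to pyruvate, 3 of 6 for phosphofructokinase and 1 of 4 for lactate (Ldha). Ankrd37 differed by 0.63 between the wildtype arrays and 0.14 between the deficient arrays, Egln3 by 0.48 and 0.28, Slc2a3 by 0.26 and 0.41, and Bnip3 by 0.21 and 0.91. It held with quantile normalization in 20 of 33 genes (25.5% of all), with centring on the median in 24 (27.6%), with the mean of probe sets in 18 (22.7%), and with every probe set in 48 of 73 (23.4%). Among the 23 members with ACGTG in a promoter window it held in 15, and among the 8 without in 5. Genes on 1 array share the cells, the RNA and the scaling of that array, so the members are not independent of each other.

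**Figure D3:**
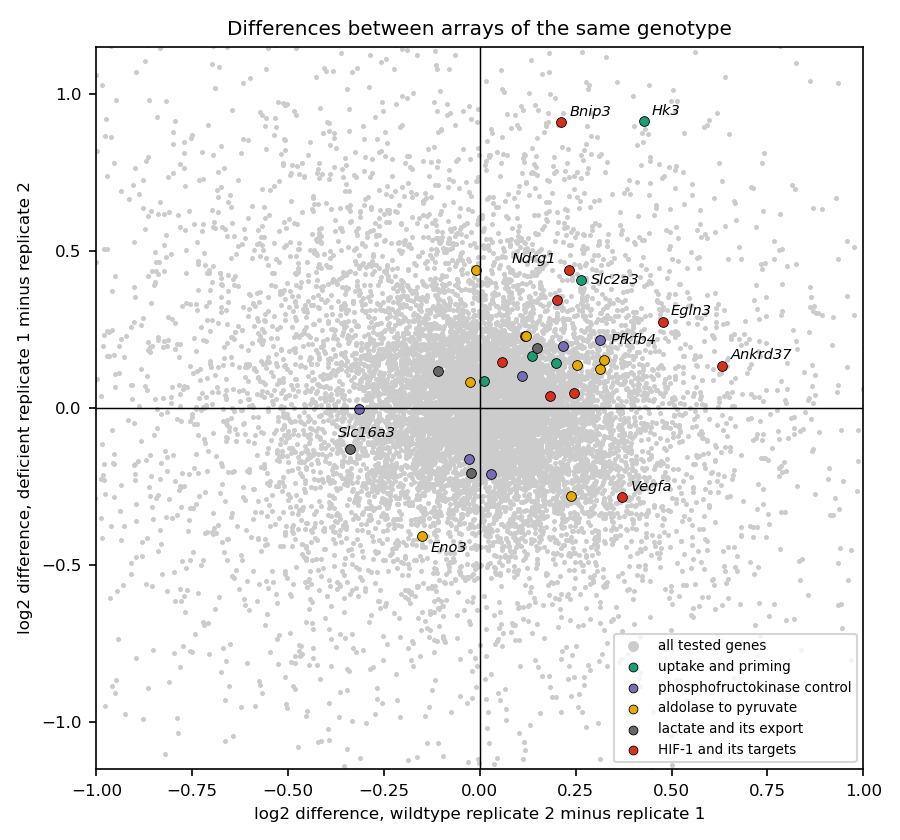
Log2 difference between the wildtype arrays (horizontal axis, replicate 2 minus 1) and between the deficient arrays (vertical axis, replicate 1 minus 2); grey points are tested genes, of which 656 lie outside the axes, and coloured points the 33 genes by role. To the right of and above 0 lie 22 of the 33 genes, among them Ankrd37, Egln3, Bnip3 and Slc2a3, against 24.6% of all tested genes.

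**Figure D4:**
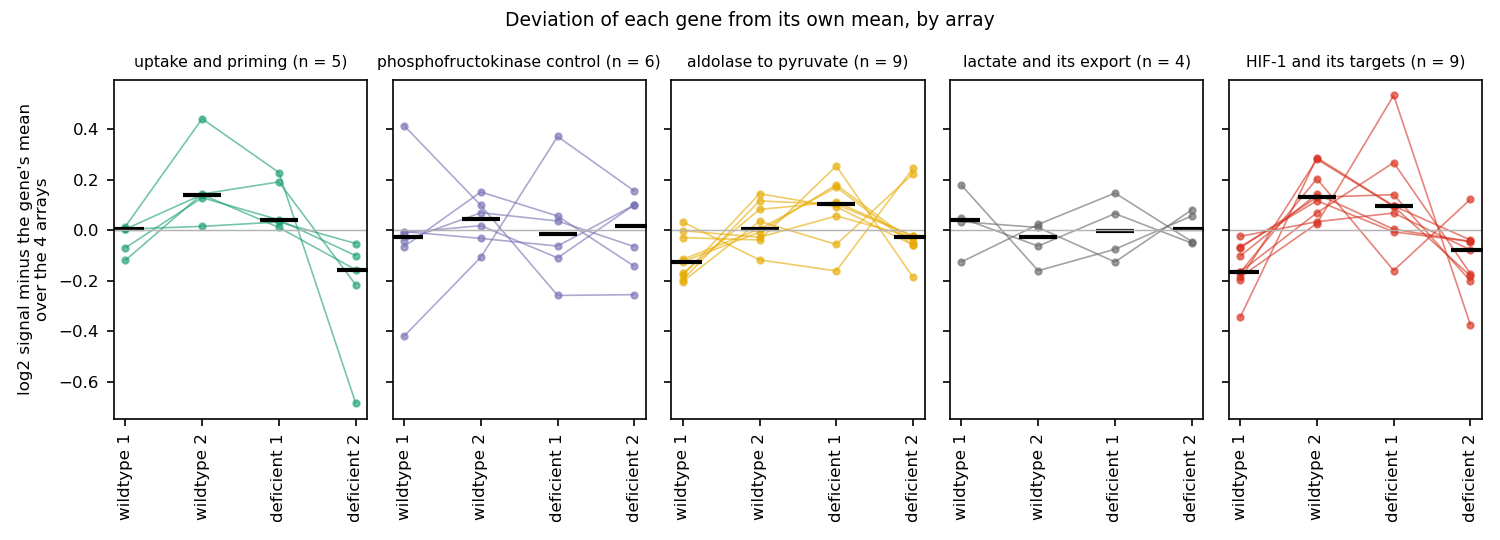
Log2 signal of each gene minus its own mean over the 4 arrays (vertical axis), by array (horizontal axis) and role; thin lines join the points of 1 gene and do not stand for an order of the arrays, and black bars are medians of the role. The bars of the 9 HIF-1 genes are higher in wildtype 2 and deficient 1 than in the other arrays, while those of the lactate genes stay near 0.

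The composition of the samples was read from markers beside these values. Of the 8 CD4 T cell markers, 7 had a probe set of their own and all 7 passed the filter. Their signals summed to 43664 and 51126 in wildtype and 45853 and 49933 in deficient arrays, so T cell transcripts were present on each. Cd4 itself, a small part of the sum, read 605 and 655 in wildtype and 462 and 725 in deficient arrays. Cd8b1, of the CD8 list, read 707 and 767 against 644 and 888, and signals of different probe sets are not comparable in height. The deficient arrays carried more B cell transcript: the 5 markers measured of 6 summed to 787 and 1216 in wildtype and 2980.2 and 4012 in deficient arrays, and 3 of the 5 rose in limma (Ms4a1, Blnk and Cd22). The red cell markers Hba-a1 and Alas2 and the myeloid markers Itgam and Cd14 were below the filter; 4 of 6 measured macrophage markers passed it, with 0 called. Of 5 measured dendritic cell markers 2 passed the filter and 1, Ccl22, rose, with sums of 858 and 615 against 1799 and 2292. That separation came from Ccl22 (549 and 420.2 against 1625 and 2053): Zbtb46 overlapped, at 193 and 131 against 136 and 175, and Itgax, Flt3 and Xcr1 were below the filter, Xcr1 reading 40.05 and 49.7 against 4.99 and 7.37. The NK markers summed to 193 and 159 against 255 and 290.0 (Klrd1 differed by 0.68 ± 0.23 without overlap, limma adjusted p = 0.751), the macrophage markers to 473 and 492 against 402 and 451, and the CD8 markers to 757 and 815 against 723 and 977. In the last list Cd8a did not overlap, at 49.6 and 48.1 against 79.4 and 88.9, and 0 NK, macrophage or CD8 markers were called. The B cell, dendritic, NK and macrophage sums did not overlap between the genotypes, as Pfkfb2 and Pfkfb4 did not, while the other 31 members did. The B cell, dendritic and NK sums were highest in deficient replicate 2. From deficient replicate 1 to 2 the NK sum rose mostly through Ncr1 (10.06 and 39.98), which was below the filter. Klrd1 read 244.7 and 249.98 on these arrays. The CD4 T cell sum of deficient replicate 2 (49933) lay above deficient replicate 1 (45853) and below wildtype replicate 2 (51126). The members lowest in deficient replicate 2 were Slc2a1, Slc2a3, Hk1, Hk2, Hk3, Pfkl, Pfkp, Pkm, Bnip3, Egln1, Pdk1 and Ndrg1. The 5 members highest on that array were Pfkm, Pfkfb3, Eno2, Eno3 and Ldhb. The part of admixed cells in the members' values was not tested.

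Other genes of these pathways gave the same count of calls. Tested were 40 genes of a wider hypoxia list, 14 HIF pathway components and 17 other glycolytic isoforms and transporters. With them were 10 genes of pyruvate import and use in the mitochondrion, 7 of the pentose phosphate pathway and 21 upstream regulators. Of all these, 0 were called higher or lower in limma. In the order of these lists, 4, 1, 2, 1, 0 and 1 genes had an unadjusted p below 0.05 in limma. Their medians were -0.033, 0.019, 0.0047, 0.050, 0.082 and -0.054, beside -0.010 over all tested genes. Myc, the driver of T cell glycolysis after activation, differed by 0.069 ± 0.087. The regulator with the smallest p was Txnip, which restrains glucose uptake, at 774 and 600.5 against 959.9 and 982 (0.50 ± 0.15; adjusted p = 0.568), and next was Tsc1, an inhibitor of mTOR signalling (-0.33 ± 0.15).

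Around HIF-1 itself, Epas1, which encodes HIF-2 alpha, had the smallest p. It read 1928 and 2655 in wildtype and 1756 and 1116 in deficient arrays, a difference of -0.69 ± 0.22 without overlap (adjusted p = 0.654 in limma). Its other probe set gave -0.50. Without wildtype replicate 1 it was -0.92 and passed (adjusted p = 0.0109), with 1 wildtype array left. Arnt, the HIF-1 beta partner, differed by 0.31 ± 0.14 with its 5 probe sets between -0.49 and 0.31, and Vhl, which takes hydroxylated HIF-1 alpha to degradation, by 0.15 ± 0.20. In the wider hypoxia list P4ha2, a collagen prolyl hydroxylase subunit like P4ha1, read 205 and 196 against 389 and 291 (0.71 ± 0.19; adjusted p = 0.503), and Cited2, a negative regulator of HIF-1, differed by 0.29 ± 0.10. Mpc1, part of the mitochondrial pyruvate carrier, read 4104 and 4019.7 against 5038 and 4775 (0.27 ± 0.090; adjusted p = 0.688), and Pdp1, a phosphatase that activates pyruvate dehydrogenase, differed by -0.24 ± 0.20. Adpgk, an ADP-dependent glucokinase, and Slc2a4, the insulin-responsive transporter, differed by -0.53 ± 0.21 and -1.08 ± 0.44, the latter between 20.2 and 112.5 in signal. In the pentose phosphate pathway Pgls and H6pd differed by 0.19 ± 0.099 and 0.14 ± 0.15.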

How the data were processed

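RNA of CD4 T cells on 4 arrays, 2 per genotype, was analysed. The deposited table holds an intensity on a linear scale for every probe set on each array, which the authors computed; MAS5 and the Transcriptome Analysis Console are named, without version, in the submitters' processing notes. In the deposited table the 2% trimmed mean of every array is close to 500, so values were already scaled; detection calls and scanner dates were not used here. Precision is limited by how few arrays there are.

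Of 45101 probe sets, 34958 had 1 gene symbol, 932 several and 9211 none. Of 64 control probe sets, the 13 carrying 1 mouse gene symbol were kept, since Gapdh has no other. Signals were transformed as log2(signal + 14.7), the 25th percentile of all values. Each gene was read from its probe set of highest mean signal, and genes with a mean log2 value at or above the 40th percentile over probe sets (5.48) were tested with limma 3.58.1 in R 4.3.3 (intensity trend, two-sided, 8.58 degrees of freedom, Benjamini-Hochberg adjustment over all tested genes, threshold 0.05). The fit was tested on simulated data. Exact permutation of 2 against 2 arrays cannot go below p = 0.333. Array signals were given for members with an unadjusted p below 0.05, members without overlap, 12 fixed members and some others chosen after their values were seen; up to 2 genes of each related list with the smallest p, and Myc, Txnip, Arnt and Vhl, were named. Members, lists and tests were chosen with earlier results of these data known. Same-numbered arrays did not deviate together (r = 0.054 across genes), so replicate number was only an alternative. Alternatives covered the pseudocount, filter, scaling, probe set choice, variance prior, replicate block and each array left out; leaving out all control probe sets was added after the data were seen. Figures used matplotlib 3.10.9.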

Additional observations from a re-analysis of the deposited data

How the results depend on the processing

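No member was called under the alternatives run, and the smallest adjusted p of a member was 0.232, without deficient replicate 2. The median difference of the members ran from -0.044 to 0.051. Over all genes 23 passed. Without the filter 2 passed, with the mean of probe sets 14, with the replicate block 14 (and 0 of the 33 members), with every probe set 39 and without the intensity trend 0, where 765 had an unadjusted p below 0.05; without 1 array 17 to 99 passed. Among the related genes 0 passed, and from 0 to 2 without 1 array, the 2 being Epas1 and Stc2 without wildtype replicate 1 (-0.79 and limma adjusted p = 0.0087 for Stc2); the lone array left in a genotype is then assumed to vary like the other pair. Most member differences are smaller than their errors. The sign changed with the array left out in 27 of 33 genes, with 6 to 12 changing sign per array. The estimates without 1 array were Slc2a3 -0.23 to 0.18, Hk1 -0.062 to 0.023, Hk2 -0.16 to 0.040, Hk3 -0.91 to 0.00055, Pfkl -0.20 to 0.022, Pfkm -0.11 to 0.097, Pfkp -0.084 to 0.027, Pfkfb3 -0.044 to 0.12, Aldoa -0.038 to 0.22, Aldoc -0.076 to 0.24, Gapdh -0.0044 to 0.23, Pgk1 -0.13 to 0.20, Pgam1 -0.012 to 0.071, Eno3 -0.12 to 0.29, Pkm -0.15 to 0.29, Ldhb -0.15 to 0.059, Slc16a1 -0.044 to 0.073, Slc16a3 -0.19 to 0.15, Hif1a -0.16 to 0.082, Vegfa -0.22 to 0.15, Bnip3 -0.30 to 0.61, Egln1 -0.23 to 0.11, Egln3 -0.32 to 0.15, Pdk1 -0.083 to 0.063, Ankrd37 -0.26 to 0.37, Ndrg1 -0.12 to 0.32 and P4ha1 -0.14 to 0.040. The other 6 kept their sign but not their size: Slc2a1 -0.23 to -0.062, Pfkfb2 -0.67 to -0.36, Pfkfb4 0.37 to 0.68, Tpi1 0.018 to 0.25, Eno2 0.027 to 0.31 and Ldha 0.0065 to 0.20. Sign also changed with quantile normalization for Pfkm (0.013), Pgk1 (-0.023), Pgam1 (-0.0089), Slc16a1 (-0.0078) and Slc16a3 (0.016). It changed with centring on the median for Slc2a3 (0.019), Hk1 (0.024), Pfkm (0.035), Pfkp (0.015), Slc16a3 (0.025), Hif1a (0.0029), Vegfa (0.0069) and Pdk1 (0.034). With the mean of probe sets it changed for Hk1 (0.020), Hk3 (0.10) and Hif1a (0.060). The cause of these changes was not tested. With the filter at the 60th percentile 32 members were tested. Of the 21 members with more than 1 probe set past the filter, 14 had probe sets of 1 sign.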

Other observations

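Probe sets that the annotation assigns to a member together with other genes were not used for the members. Of 4 such probe sets, 3 name Gapdh with its pseudogenes. The brightest of these read 22339.8 and 28701 in wildtype and 27688 and 25068 in deficient arrays, with overlap of the genotypes. The probe set that names Hk1 beside Rpl17 and its pseudogenes read 28755 and 34685 in wildtype and 34980.2 and 31742 in deficient arrays.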
